A study of Dascyllus aruanus with 17 samples.

Results

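Brains of the damselfish *Dascyllus aruanus* sampled late in a lamp-lit night were set against brains sampled late in a natural day, so that both groups were under light when taken. Of the 17 samples of the series and the 14 libraries of its count table, 7 belong to this comparison: 4 ALAN night brains and 3 control day brains, chosen by the group in their titles. ALAN night fish (ALAN stands for artificial light at night) were kept under dim white lamps during darkness over 72 h and were taken at ZT23, in zeitgeber hours, just before sunrise. Control day fish had the natural light-dark cycle and were taken at ZT11, just before sunset. Beside them stand 4 control night brains (natural cycle, ZT23, in the dark) and 3 ALAN day brains (lamps at night, ZT11). All were wild fish, habituated for 96 h before treatment, and each library held 1 brain.

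The design asks which transcripts follow light and which follow time. By the definition of the comparison, a transcript that falls in the dark control night but does not differ between lit night and natural day goes with light, and one that still differs goes with time. The lamp was dim and the daylight was not, so light in the 2 groups was not the same light. Light source, time of day and 3 nights of treatment all differ between the groups and cannot be told apart within this contrast. Per the labels the treatment was given to colonies, 6 in all, and the sources used here do not tie a fish to its colony. Brains of 1 group may come from the same colony, so p-values measure the spread between these brains. The batch field of the labels repeats the sampling time and names no other batch.

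In vertebrates the circadian clock is a loop in which CLOCK and ARNTL (BMAL) proteins switch on the period and cryptochrome genes, whose products then shut CLOCK and ARNTL off. A second loop runs through the nuclear receptors NR1D1 and NR1D2, which repress, and the ROR receptors, which activate. Immediate-early genes such as FOS and EGR1 are switched on within minutes of neuronal firing and are read as markers of recent activity, and in fish many tissues also sense light directly.

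The table held 21805 assembled features, of which 20782 passed a filter on low counts and were tested. Gene names are those of the best annotated orthologue, so 2 features may carry 1 name; such features are told apart by their assembly number. Levels are CPM (counts scaled to the size of each library). They are not per length and serve to compare brains for 1 feature, not features with each other. Total expected counts ran from 17941030 to 20432119 in ALAN night brains and from 14942952 to 17862362 in control day brains. Brain markers were present, with neuron-list sums of at least 2860 CPM in ALAN night brains and at least 3243 CPM in control day brains. The neuron-list sum of every ALAN night brain lay below that of every control day brain, and so did that of every control night brain. Whether this gap bears on the neuronal features reported as lower was not tested. Since these are whole brains, fewer cells of a type and less RNA per cell cannot be told apart. Some features of liver and skeletal muscle were high in control day brains and are described at the end.

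Across all tested features, 524 differed between ALAN night and control day brains, which is 2.52% of those tested (edgeR quasi-likelihood test, adjusted p under 0.05). Of these, 264 (1.27%) were higher and 260 (1.25%) lower in the lit night, and 3142 features had an unadjusted p under 0.05. A gene name was given to 430 of the 524. The 12 named features with the smallest p on the higher side were *PER3*, *SMU1* (DN1335_c1_g1), *BHLHE41*, *PER1*, *ciart*, *NR1D2* (DN9051), *znf395*, *BHLHE40*, *NR1D1*, *CRY1*, *KCTD17* and *DUSP6* (DN3438_c0_g2). On the lower side they were *opn3*, *RIMKLB*, *NYAP2* (DN7308_c2_g2), *PRICKLE2*, *MARCKSL1*, *ASB5*, *Hr46*, *MXD3*, *CACNG5*, *NFIL3*, *ARNTL2* (DN6179) and *RAPH1*. The count leaned on single brains: it was 248 without control day replicate 1, 233 without control day replicate 4, and 309, 301 and 302 without ALAN night replicate 2, 3 or 4. With the 7 libraries alone in the fit it was 307, and DESeq2 called 1197.

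Clock repressors were higher in the lit night than by natural day. *PER3*, a period gene whose product represses CLOCK and ARNTL, had 112, 105, 107 and 112 CPM in ALAN night brains, 87.8, 103, 90.7 and 112 CPM in control nights, 8.73, 8.67 and 7.22 CPM in ALAN day brains, and 7.82, 8.80 and 8.54 CPM in control day brains. Every brain taken at ZT23 lay above every brain taken at ZT11 (ALAN night over control day: log2 fold change 3.70, SE 0.127, edgeR adjusted p 2.71e-09). *PER1* had 69.8, 97.0, 88.2 and 86.4 CPM in ALAN night brains, against 2.94, 3.42 and 3.33 CPM in control day brains (log2 fold change 4.72, SE 0.259, edgeR adjusted p 1.44e-07). Its 4 control night brains, at 73.3, 100.2, 116 and 89.8 CPM, overlapped the lit nights, and the 3 ALAN day brains, at 7.10, 3.88 and 3.79 CPM, lay just above the control days.

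Several other clock repressors were called higher too, and others were not called. *CRY1*, a cryptochrome that acts with the period proteins, had 54.5, 42.7, 59.7 and 52.7 CPM in ALAN night brains, 28.9, 32.1, 48.1 and 29.6 CPM in control nights, 8.73, 8.61 and 13.1 CPM in ALAN day brains, and 9.11, 8.80 and 8.60 CPM in control day brains (ALAN night over control day: log2 fold change 2.57, SE 0.218, edgeR adjusted p 1.59e-05). All but 1 of the dark nights lay below the lowest lit night, yet the direct contrast of ALAN night over control night was not called (log2 fold change 0.60, edgeR adjusted p 0.920). *BHLHE41* and *BHLHE40* encode helix-loop-helix repressors that compete for the clock's DNA elements. *BHLHE41* had 138, 220.0, 204 and 192 CPM in ALAN night brains, against 17.2, 19.6 and 21.0 CPM in control day brains (log2 fold change 3.29, SE 0.172, edgeR adjusted p 9.76e-08). *BHLHE40* had 110.0, 140.4, 123 and 124 CPM in ALAN night brains, against 33.3, 31.2 and 28.4 CPM in control day brains (log2 fold change 2.01, SE 0.144, edgeR adjusted p 2.50e-06). *ciart*, another repressor of CLOCK and ARNTL, was at 45.5, 73.0, 65.7 and 63.2 CPM in ALAN night brains, against 0.0717, 0.380 and 0.0585 CPM in control day brains. It was almost without reads by natural day, so its fold (log2 fold change 8.37, SE 0.504, edgeR adjusted p 4.01e-07) rests on a low denominator. A second feature of that name (*CIART* DN1024) was not called (log2 fold change 3.50, edgeR adjusted p 0.131), though DESeq2 called it higher. None of the 3 *CRY2* features was called by edgeR. DN11246 and DN17362 had log2 fold changes of 0.34 and 0.36, with edgeR adjusted p of 0.770 and 0.856. DN1907_c0_g1 had the opposite sign (−0.43, edgeR adjusted p 0.0670), and DESeq2 called it lower.

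In the nuclear receptor loop, *NR1D1* had 64.6, 87.8, 67.8 and 88.0 CPM in ALAN night brains, 131, 153, 95.6 and 115 CPM in control nights, 3.50, 8.27 and 2.44 CPM in ALAN day brains, and 1.29, 0.489 and 2.22 CPM in control day brains. The night and day brains were far apart (ALAN night over control day: log2 fold change 5.85, SE 0.493, edgeR adjusted p 1.49e-05). All 4 lit nights lay below the 4 dark nights, a difference that was not called (log2 fold change −0.68, edgeR adjusted p 1.00). Both features named *NR1D2* were higher too, DN9051 with 168, 144, 120.5 and 132 CPM in ALAN night brains, against 25.6, 34.5 and 37.3 CPM in control day brains (log2 fold change 2.12, SE 0.147, edgeR adjusted p 2.05e-06). For DN1975_c0_g1 the difference was 2.22 on the log2 scale (edgeR adjusted p 0.000209). *Hr46*, which carries the fly name of a ROR-type receptor, went the other way with 5.16, 3.52, 4.54 and 4.41 CPM in ALAN night brains, against 26.8, 36.7 and 26.3 CPM in control day brains (log2 fold change −2.76, SE 0.261, edgeR adjusted p 4.24e-05). An unnamed feature that the annotation describes as ROR-beta-like (DN8914) was likewise lower, at 8.44, 5.72, 6.34 and 4.86 CPM in ALAN night brains, against 101, 118 and 107 CPM in control day brains (log2 fold change −4.09, SE 0.165, edgeR adjusted p 7.27e-09). Features named for ROR receptors themselves were not called, *RORA* DN1311_c0_g1 with a log2 fold change of 0.11, *RORA* DN4406 with 1.74 and *RORB* DN1311_c1_g3 with 0.08, at edgeR adjusted p of 0.926, 0.297 and 0.846.

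**Figure D1:**
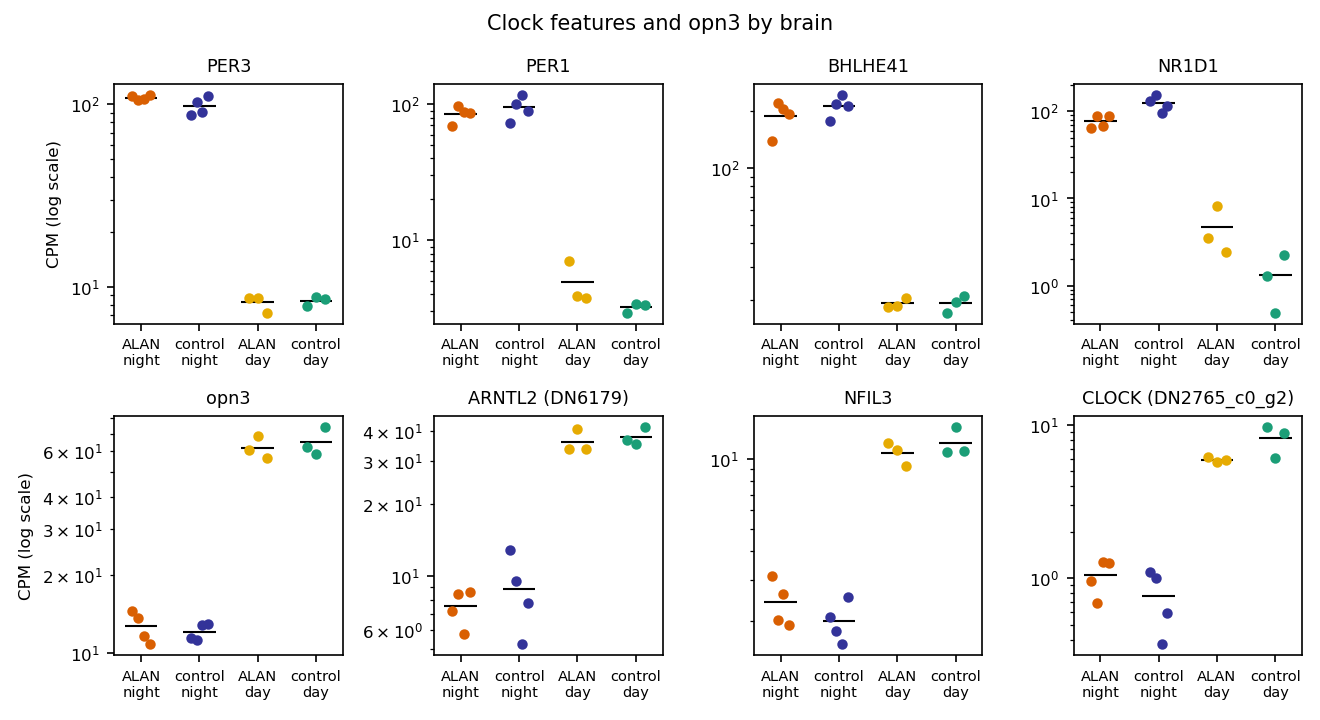
Levels of 7 clock features and *opn3* in each brain, in CPM on a log axis, with 1 point a brain and a bar at the group mean. The ALAN night points stand with the control night points and apart from both day groups, above them for *PER3*, *PER1*, *BHLHE41* and *NR1D1* and below them for *opn3*, *ARNTL2*, *NFIL3* and *CLOCK*.

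Of the features named for the clock's activators, 3 were called lower in the lit night. *ARNTL2* (DN6179), a partner of CLOCK, had 7.15, 8.42, 5.77 and 8.61 CPM in ALAN night brains, 12.8, 9.51, 5.23 and 7.74 CPM in control nights, 33.6, 40.9 and 33.6 CPM in ALAN day brains, and 36.9, 35.2 and 41.6 CPM in control day brains (ALAN night over control day: log2 fold change −2.34, SE 0.240, edgeR adjusted p 0.000105). A feature named *CLOCK* (DN2765_c0_g2) had 0.968, 0.687, 1.28 and 1.27 CPM in ALAN night brains, against 9.68, 6.03 and 8.83 CPM in control day brains (log2 fold change −2.95, SE 0.360, edgeR adjusted p 0.000570). *NPAS2* (DN4378), a close relative of CLOCK, had 4.19, 1.51, 1.75 and 1.37 CPM in ALAN night brains, against 11.3, 10.5 and 15.4 CPM in control day brains (log2 fold change −2.49, SE 0.397, edgeR adjusted p 0.00436). Lit nights and natural days did not overlap in these 3 features, which is no further evidence since they were picked by this call. Another 3 features named *CLOCK*, DN7558_c4_g1, DN11652 and DN1042_c1_g2, had log2 fold changes of −1.48, −0.57 and −0.56 that did not pass, with edgeR adjusted p of 0.0939, 0.220 and 0.279. *ARNTL* itself (DN11392) was not called (log2 fold change −1.24, edgeR adjusted p 0.279), nor was the second *ARNTL2* feature (DN3530), which had a positive sign (0.46, edgeR adjusted p 0.359), nor the second *NPAS2* feature (DN25099; −3.05, edgeR adjusted p 0.0838). DESeq2 and the fit with the 7 libraries alone, among other settings, called *CLOCK* DN7558_c4_g1 and *NPAS2* DN25099 lower.

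Factors that read the D-box, a DNA element of clock output genes, were called in both directions. *NFIL3*, a D-box repressor, had 3.12, 2.01, 2.60 and 1.93 CPM in ALAN night brains, against 10.7, 13.7 and 10.8 CPM in control day brains (log2 fold change −2.28, SE 0.233, edgeR adjusted p 0.000103). An unnamed feature annotated as an NFIL3 family member (DN1829) had 2.37, 2.88, 3.03 and 3.90 CPM in ALAN night brains, against 122, 115 and 106 CPM in control day brains (log2 fold change −5.23, SE 0.205, edgeR adjusted p 7.27e-09). A further one (DN7683_c0_g3) was lower by a similar order (log2 fold change −3.30, edgeR adjusted p 3.08e-08). Among D-box activators, the 3 features named *TEF* were higher, with log2 fold changes of 4.18 (DN16624_c0_g2), 1.30 (DN673) and 1.35 (DN11836) and edgeR adjusted p of 0.000400, 0.000168 and 0.0419. An unnamed feature described as the D-box factor DBP (DN8846_c0_g1) was at 125, 264, 215 and 244 CPM in ALAN night brains, against 9.40, 16.8 and 14.0 CPM in control day brains (log2 fold change 3.98, SE 0.294, edgeR adjusted p 3.36e-06). Both features of *HLF*, another D-box activator, were not called (DN2920_c0_g1 0.34 and DN2920_c0_g2 0.48 on the log2 scale, edgeR adjusted p 0.760 and 0.188). The call of *TEF* DN11836 was lost in 9 of the settings tried, among them without ALAN night replicate 2, 3 or 4 and without any of the 3 control day brains.

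The kinases that mark period proteins for decay differed by feature, *CSNK1D* (DN1746_c1_g1) being higher (log2 fold change 0.90, edgeR adjusted p 0.000209) and *CSNK1E* (DN5256) lower (−0.62, edgeR adjusted p 0.00786). The other *CSNK1D* feature and the other 2 *CSNK1E* features were not called by edgeR. DESeq2 called *CSNK1E* DN1746_c0_g2 lower. Over the whole core clock list, 45 features were tested. In ALAN night over control day, 13 were higher (28.9%, against 1.27% over all features) and 5 lower (11.1%, against 1.25%). The other 27 were not called. The median log2 fold change of the list was 0.34, against 0.01 over all tested features. In control night over control day, which shares the control day brains, 12 were higher and 6 lower (1.07% and 1.0% over all features). The features of the KEGG circadian rhythm pathway gave 8 higher and 6 lower of 51 tested in ALAN night over control day (27.5% called, against 2.52% over all features).

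The remaining features with the smallest p are of mixed function. A feature whose best match is the splicing factor *SMU1* (DN1335_c1_g1) had 295, 522, 401 and 421 CPM in ALAN night brains, against 8.39, 10.5 and 10.6 CPM in control day brains (log2 fold change 5.37, SE 0.234, edgeR adjusted p 1.29e-08). *DUSP6* (DN3438_c0_g2), a phosphatase that switches off ERK kinases, had 254, 292, 259 and 292 CPM in ALAN night brains, against 77.5, 58.7 and 78.8 CPM in control day brains (log2 fold change 1.94, SE 0.168, edgeR adjusted p 1.96e-05). *KCTD17*, an adaptor of a ubiquitin ligase, and the zinc finger gene *znf395* also rose, by log2 fold changes of 1.57 and 2.03. An unnamed feature described as the clock-interacting protein CIPC (DN1929) had 84.9, 78.8, 89.4 and 82.8 CPM in ALAN night brains, against 13.4, 11.9 and 14.3 CPM in control day brains (log2 fold change 2.67, SE 0.143, edgeR adjusted p 1.25e-07).

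On the lower side, *opn3*, the gene of a non-visual opsin found in brain, had 14.6, 13.6, 11.7 and 10.8 CPM in ALAN night brains, 11.5, 11.3, 12.8 and 12.9 CPM in control nights, 60.3, 68.6 and 56.3 CPM in ALAN day brains, and 62.1, 58.5 and 74.3 CPM in control day brains. The lit nights lay with the dark nights and below all day brains (ALAN night over control day: log2 fold change −2.36, SE 0.135, edgeR adjusted p 2.28e-07), so this opsin was low late in the night with and without the lamps. *RIMKLB*, a ligase that makes N-acetylaspartylglutamate, had 15.97, 16.2, 15.6 and 15.4 CPM in ALAN night brains, against 50.9, 46.1 and 45.9 CPM in control day brains (log2 fold change −1.59, SE 0.0981, edgeR adjusted p 4.92e-07). The other named features on this side were *NYAP2*, an adaptor of phosphoinositide signalling (log2 fold change −1.77), *PRICKLE2*, a planar polarity protein (−1.28), *MARCKSL1*, a substrate of protein kinase C that binds actin (−1.04), *CACNG5*, an auxiliary subunit of AMPA receptors (−1.43), and *RAPH1*, a regulator of actin at the leading edge (−1.42). *MXD3*, which pairs with MAX against MYC, and *ASB5*, an ankyrin repeat protein, had log2 fold changes of −2.54 and −1.80. The edgeR adjusted p of these 7 features lay between 2.34e-06 for *NYAP2* and 0.000328 for *RAPH1*.

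Control night over control day called 430 features, which is 2.07% of those tested. Of 208 lower in control night than in control day brains (1.0% of those tested), 122 were also called lower in ALAN night brains, which is 58.7%. None was called in the opposite direction, and 86 were not called. Of the 222 higher in control night brains (1.07%), 169 were also called higher in ALAN night brains, which is 76.1%, and 53 were not. Both contrasts use the same control day brains, so these shares are a description and were not tested. The median log2 fold change of the 208 was −0.77 in ALAN night and −0.99 in control night over control day, and that of the 222 was 1.35 and 1.38. The 122 became 68 without control day replicate 1, 69 without control day replicate 4, 75 without ALAN night replicate 3 and 319 under DESeq2. The 169 became 76 without control day replicate 1 or 4, 103 without control night replicate 2, 265 without control day replicate 2 and 370 under DESeq2. The 430 calls that these counts start from moved as well. They became 217 and 216 without control day replicate 1 or 4, and 552 without control day replicate 2. Without ALAN night replicate 3 there were 334, without control night replicate 2 there were 257, and DESeq2 gave 1096.

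A missed call is not evidence of a like level, so the 95% interval of each log2 fold change was read against a factor of 1.5 in either direction. Over all tested features, 25.9% had an interval in ALAN night over control day that lay wholly inside that margin. Among the 208 features lower in the dark night, 17 did (8.17%), of which 16 were not called. Another 70 were neither called nor held within the margin, so their place between light and time was not settled by these 7 brains. Of the 222 features higher in the dark night, 2 lay within the margin (0.9%), *WIPI1* and *RABEP1*, and 51 were uncalled with wider intervals. The 17 became 8, 7 and 11 without ALAN night replicate 2, 3 or 4, 3 without control day replicate 1 or 4, and 11 without ALAN day replicate 3. Without control night replicate 1, 2, 3 or 4 it became 8, 7, 11 and 5. The 2 became 1 without ALAN night replicate 2, control day replicate 1, ALAN day replicate 3 or control night replicate 2, 3 or 4, and 0 without control day replicate 4. Leaving out a brain also changed the number of features called in control night over control day, the set that these counts start from. A margin of a factor of 2 held 86 and 34 features.

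*FOS*, the founding immediate-early gene, had the smallest p in the dark-night contrast among the named features within the margin. It had 65.1, 40.1, 59.5 and 42.4 CPM in ALAN night brains, 12.5, 11.2, 11.5 and 15.3 CPM in control nights, 49.2, 58.6 and 40.9 CPM in ALAN day brains, and 42.5, 44.4 and 64.0 CPM in control day brains. The 4 dark nights lay below all other brains, and the lit nights overlapped the natural days. *FOS* was picked by its call in control night over control day and by its interval. The order of dark nights, lit nights and natural days is thus no further evidence. The log2 fold change of ALAN night over control day was 0.04 (95% interval −0.40 to 0.48, edgeR adjusted p 0.957). Against control night brains *FOS* was higher under the lamps (log2 fold change 2.03, SE 0.200, edgeR adjusted p 0.00211), while control night over control day gave a log2 fold change of −1.99 (edgeR adjusted p 0.000130).

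The direct contrast of ALAN night over control night called 6 features (0.0289% of those tested), all higher under the lamps, with 959 at an unadjusted p under 0.05. Besides *FOS* these were *EGR1* (DN67897), *NPAS4* (DN12604), both features named *RTN4RL2*, and an unnamed feature described as interleukin-1 receptor-like (DN21832). The count fell to 3 without ALAN night replicate 2 or 4 or control night replicate 4, and to 1 without ALAN night replicate 3 or control night replicate 1 or 2. Counts summed by gene name gave 3, and DESeq2 gave 41. Of these features, 5 were among the 208 lower in the dark night than by natural day. All 6 were picked by their call here, so gaps between lit and dark nights in their levels are no further evidence.

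*EGR1* (DN67897), a zinc finger factor induced by firing, had 36.2, 30.0, 40.6 and 33.0 CPM in ALAN night brains, 8.03, 9.61, 10.1 and 13.7 CPM in control nights, 52.2, 44.0 and 28.5 CPM in ALAN day brains, and 38.6, 33.0 and 58.2 CPM in control day brains. The dark nights stood apart from every other brain, and the lit nights overlapped the natural days. Its interval in ALAN night over control day, −0.82 to 0.20, reached beyond the margin on the lower side (log2 fold change −0.31, edgeR adjusted p 0.616). *NPAS4* (DN12604), an activity-dependent factor of neurons, had 14.7, 12.5, 13.8 and 12.6 CPM in ALAN night brains, 4.68, 4.70, 5.60 and 6.71 CPM in control nights, 22.1, 19.9 and 16.6 CPM in ALAN day brains, and 15.9, 16.3 and 20.7 CPM in control day brains. All 4 lit nights lay above the dark nights and below the natural days, and the difference from natural day was not called (log2 fold change −0.40, SE 0.167, edgeR adjusted p 0.279).

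*RTN4RL2*, a relative of the Nogo receptor that limits axon growth, was called in both of its features. DN8334 had 39.8, 52.6, 48.0 and 42.6 CPM in ALAN night brains, 28.9, 27.4, 25.8 and 26.9 CPM in control nights, 80.2, 80.9 and 66.9 CPM in ALAN day brains, and 52.4, 63.6 and 53.2 CPM in control day brains. Its interval in ALAN night over control day, −0.56 to −0.04, lay within the margin, and it was higher than in control nights (log2 fold change 0.75, edgeR adjusted p 0.0493). DN6473 had an interval of −0.74 to −0.08 against control day, just beyond the margin, and a log2 fold change of 1.10 over control night (edgeR adjusted p 0.0153). The interleukin-1 receptor-like feature DN21832 had 5.91, 9.75, 9.75 and 10.8 CPM in ALAN night brains, 1.44, 2.40, 3.31 and 1.75 CPM in control nights, 4.54, 5.53 and 4.31 CPM in ALAN day brains, and 3.23, 3.91 and 3.16 CPM in control day brains. It was higher in the lit night than in the natural day (log2 fold change 1.40, SE 0.304, edgeR adjusted p 0.0273), as it was than in the dark night (log2 fold change 2.02, edgeR adjusted p 0.0240). The day call was lost without ALAN night replicate 2, 3 or 4 and without control day replicate 1 or 4.

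**Figure D2:**
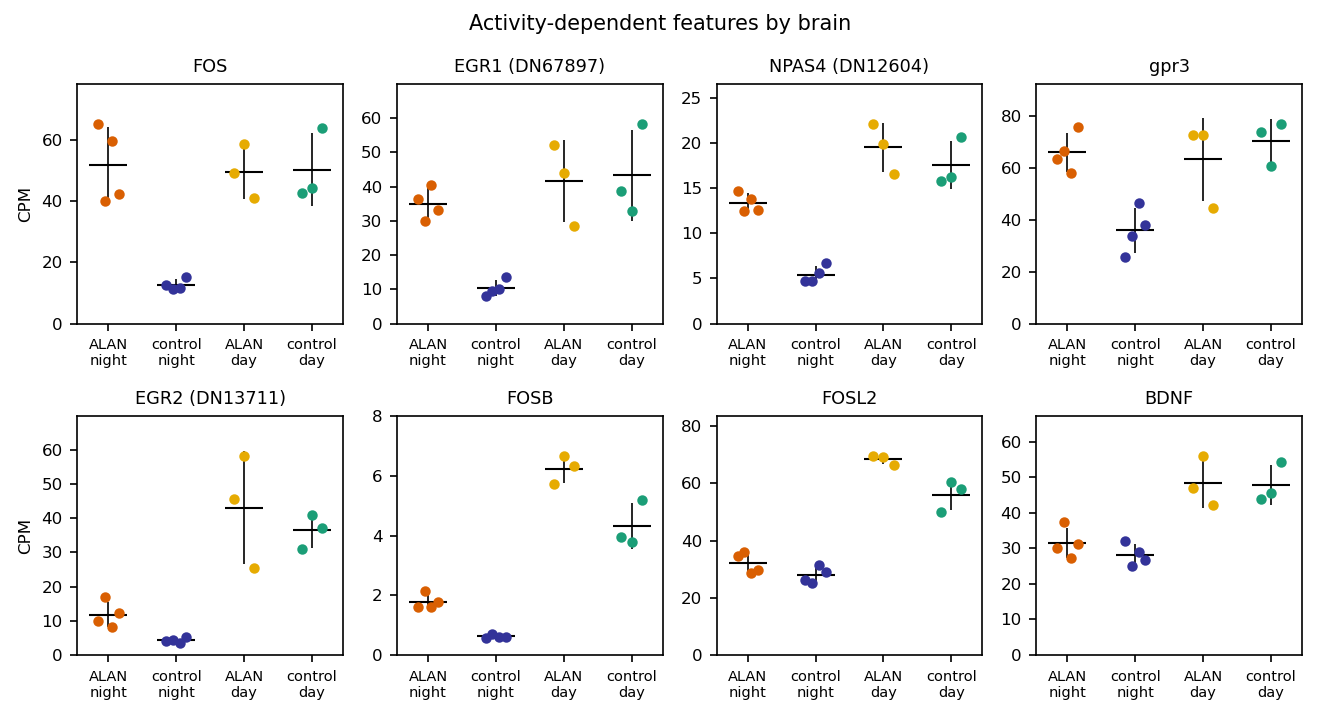
Levels of 8 activity-dependent features in each brain, in CPM on a linear axis from 0, with 1 point a brain, a bar at the group mean and a vertical line of ± 1 SD. For *FOS*, *EGR1*, *NPAS4*, *gpr3*, *EGR2* and *FOSB* the ALAN night points stand above the control night points. Those of *NPAS4*, *EGR2*, *FOSB*, *FOSL2* and *BDNF* stand below the control day points.

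*gpr3*, a receptor that raises cyclic AMP without a ligand, had 63.6, 66.4, 58.0 and 75.9 CPM in ALAN night brains, 25.5, 33.7, 46.5 and 37.9 CPM in control nights, 72.5, 72.6 and 44.7 CPM in ALAN day brains, and 73.7, 60.7 and 76.8 CPM in control day brains. Lit nights and natural days overlapped (log2 fold change −0.09, 95% interval −0.53 to 0.34), and the dark nights lay below both. Like the other features of this paragraph, *gpr3* was picked by its dark-night call and its interval, so that order is no further evidence. *JUND* (DN13545_c0_g1) and *JUNB*, which pair with FOS in the AP-1 factor, had log2 fold changes of −0.26 and −0.32 in ALAN night over control day, with intervals of −0.44 to −0.08 and −0.58 to −0.06. In neither did a lit night reach the lowest natural day. *CDK5R2*, an activator of the neuronal kinase CDK5, *nptxr*, a receptor for neuronal pentraxins at synapses, and *GPI*, an enzyme of glycolysis, had log2 fold changes of −0.30, −0.29 and −0.31, with edgeR adjusted p of 0.134, 0.274 and 0.0655. The intervals of these 3 lay below 0 and within the margin. DESeq2 nevertheless called *CDK5R2*, *GPI* and *JUND* (DN13545_c0_g1) lower in ALAN night than in control day brains, but not *JUNB* or *nptxr*. *GPI* was also called lower with counts summed by gene name. The other 6 named features within the margin, past the first 8 by p, were *TARDBP*, *CCT8*, *FAM19A5*, *TULP4*, *YWHAQ* and *IER2*. *IER2*, an immediate-early gene, had 40.9, 39.8, 46.0 and 39.6 CPM in ALAN night brains, 14.7, 27.1, 27.1 and 25.1 CPM in control nights, 40.1, 45.4 and 44.0 CPM in ALAN day brains, and 33.8, 41.5 and 42.9 CPM in control day brains (ALAN night over control day: log2 fold change 0.08, 95% interval −0.31 to 0.46).

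On the rising side, *WIPI1*, an autophagy protein, had 41.0, 44.5, 42.0 and 42.2 CPM in ALAN night brains, 49.6, 54.6, 56.2 and 51.4 CPM in control nights, 48.9, 50.1 and 51.0 CPM in ALAN day brains, and 39.9, 37.4 and 30.3 CPM in control day brains. *RABEP1*, a tether of early endosomes, had 8.12, 7.87, 7.53 and 9.37 CPM in ALAN night brains, 14.3, 10.6, 17.2 and 15.3 CPM in control nights, 12.1, 9.93 and 10.1 CPM in ALAN day brains, and 8.96, 8.91 and 6.61 CPM in control day brains. In both the dark nights were the highest group by mean, and the lit nights differed from natural day by log2 fold changes of 0.24 and 0.01. Both were picked by their dark-night call and their interval, so the order of these 3 groups is no further evidence.

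Second features of *EGR1* (DN8733), *NPAS4* (DN7275) and *EGR2* (DN62330) were not called in ALAN night over control day, with log2 fold changes of −0.44, −0.28 and 0.03.

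Not every immediate-early gene stood at its day level under the lamps. *EGR2* (DN13711), a zinc finger factor, had 10.1, 16.8, 8.14 and 12.2 CPM in ALAN night brains, 4.16, 4.30, 3.45 and 5.17 CPM in control nights, 45.5, 58.2 and 25.4 CPM in ALAN day brains, and 31.0, 41.1 and 37.2 CPM in control day brains. The lit nights lay between the dark nights and the days without touching either, and the drop against natural day was called (log2 fold change −1.62, SE 0.273, edgeR adjusted p 0.00618). *FOSB*, a partner of the JUN proteins, had 1.61, 2.15, 1.61 and 1.77 CPM in ALAN night brains, 0.578, 0.701, 0.607 and 0.599 CPM in control nights, 5.72, 6.67 and 6.34 CPM in ALAN day brains, and 3.94, 3.80 and 5.21 CPM in control day brains. It showed the same order (ALAN night over control day: log2 fold change −1.27, SE 0.244, edgeR adjusted p 0.0152), but this call was lost without ALAN night replicate 3 or control day replicate 4 and with the 7 libraries alone. Against control night the log2 fold changes of *EGR2* and *FOSB* were 1.46 and 1.52, with edgeR adjusted p of 0.207 and 0.0724, so that step was not called.

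*FOSL2*, a further FOS relative, did not take the middle place. It had 34.5, 36.1, 28.6 and 29.7 CPM in ALAN night brains, 26.3, 25.1, 31.6 and 29.0 CPM in control nights, 69.6, 69.2 and 66.3 CPM in ALAN day brains, and 50.1, 60.3 and 57.8 CPM in control day brains. Lit and dark nights overlapped and both lay below all day brains (ALAN night over control day: log2 fold change −0.80, SE 0.119, edgeR adjusted p 0.00286). A pair of immediate-early features was higher in the lit night than by day. *KLF2* (DN10687), a Krüppel-like factor, had 19.7, 24.9, 21.9 and 18.8 CPM in ALAN night brains, against 8.39, 11.2 and 13.4 CPM in control day brains (log2 fold change 0.95, SE 0.188, edgeR adjusted p 0.0174). Its control nights, at 20.4 to 22.6 CPM, overlapped the lit nights. *srf* (DN621_c0_g2), the serum response factor, had a log2 fold change of 0.83 (edgeR adjusted p 0.0477). The second features of these names, *KLF2* DN15472 and *SRF* DN11519, were not called. The *KLF2* call was lost without control day replicate 1 and with the 7 libraries alone, and the *srf* call in 14 of 20 settings.

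Over the immediate-early list, 29 features were tested for 21 names. In ALAN night over control day 2 were higher, 3 lower and 24 not called (17.2% called, against 2.52% over all features). The median log2 fold change was −0.21. In control night over control day 2 were higher and 10 lower (1.07% and 1.0% over all features), with a median of −0.53. Of the 29, 7 had an interval within the margin in ALAN night over control day (25.9% of all features did). Summed over the list, levels ran from 943 to 1076 CPM in ALAN night brains, from 762 to 829.7 CPM in control night brains, from 1103 to 1453 CPM in ALAN day brains, and from 1074 to 1279 CPM in control day brains. The highest lit night thus just met the lowest natural day, and every dark night lay below every lit night. The *NR4A* nuclear receptors, *ATF3*, *DUSP1* and *FOSL1* had intervals too wide to place, that of *NR4A1* (DN9123) running from −0.73 to 0.77.

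**Figure D3:**
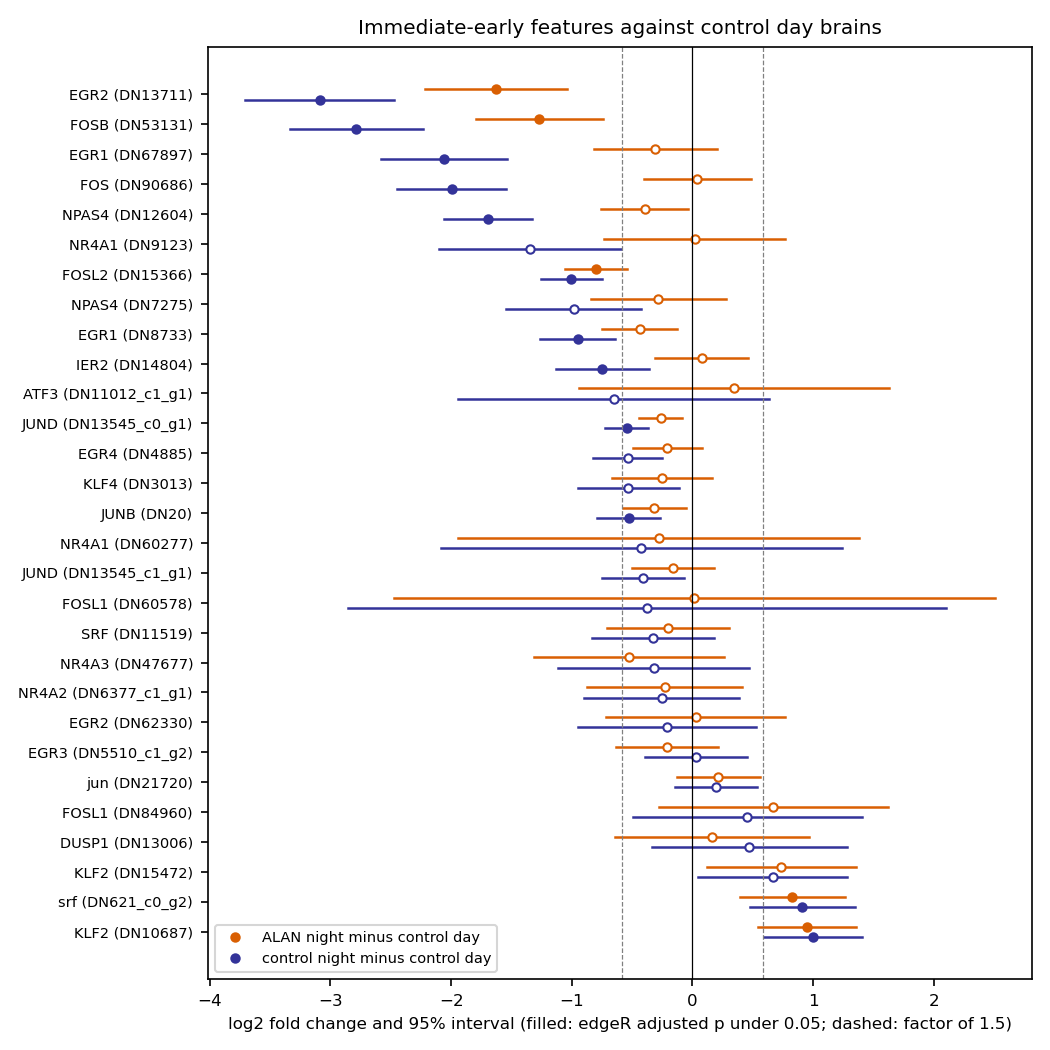
Log2 fold changes with 95% intervals for the 29 immediate-early features, ALAN night minus control day above control night minus control day in each row; filled points have an edgeR adjusted p under 0.05 and dashed lines mark a factor of 1.5. For *FOS* and *EGR1* (DN67897) the ALAN night interval crosses 0 while the control night interval lies below −1, and for *EGR2* (DN13711), *FOSB* and *FOSL2* both intervals lie below 0.

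Genes that follow activity more slowly gave 1 higher and 1 lower call of 37 tested (5.41%, against 2.52% over all features), with a median log2 fold change of −0.22. *BDNF*, the neurotrophin, had 30.0, 37.4, 27.4 and 31.3 CPM in ALAN night brains, 32.2, 25.2, 28.8 and 26.8 CPM in control nights, 46.9, 56.0 and 42.2 CPM in ALAN day brains, and 43.8, 45.5 and 54.3 CPM in control day brains. The lit nights lay with the dark nights below all day brains (ALAN night over control day: log2 fold change −0.60, SE 0.142, edgeR adjusted p 0.0399), a call lost in 11 of 20 settings, among them without ALAN night replicate 1, 3 or 4 or any control day brain. The higher call was the *DUSP6* feature described above. The lower count became 5 under DESeq2, 3 without ALAN night replicate 2, and 0 without ALAN night replicate 1, 3 or 4, control day replicate 1 or 4, ALAN day replicate 1 or control night replicate 3 or 4. In control night over control day the same list gave 1 higher and 9 lower (1.07% and 1.0% over all features). Its median log2 fold change there was −0.23, close to the −0.22 of ALAN night over control day. In the latter contrast 16 of the 37 had an unadjusted edgeR p under 0.05. The gap in calls between these contrasts with control day is thus not a like gap in levels. In ALAN night over control night, 2 of the 37 were called higher, against 0.0289% over all features. They were the *RTN4RL2* features, and the median log2 fold change of the list there was 0.10, against −0.01 over all features.

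Genes known from zebrafish to be induced by light were tested in 13 features. Of these, 5 were called higher in ALAN night over control day (38.5%, against 1.27% over all features). The median log2 fold change was 1.03, against 0.01 over all features. Of the 5, 4 are also on the clock list, being *CRY1* and the 3 *TEF* features. In control night over control day, with the nights dark, 3 of the 13 were called higher (1.07% over all features), with a median of 0.47. No feature of this list was called in ALAN night over control night, where 0.0289% of all features were. *DDB2*, a damage sensor of nucleotide excision repair, had 41.7, 22.9, 32.8 and 23.8 CPM in ALAN night brains, 11.1, 21.0, 23.6 and 20.9 CPM in control nights, 15.1, 12.4 and 14.1 CPM in ALAN day brains, and 11.2, 12.5 and 17.8 CPM in control day brains. Its lit nights lay above all natural days (log2 fold change 1.13, SE 0.274, edgeR adjusted p 0.0464), but this call was lost in 15 of 20 settings. The 5 higher calls in ALAN night over control day became 3 without ALAN night replicate 2, 3 or 4, any 1 control day brain, or ALAN day replicate 3. Under DESeq2 they became 7.

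*PER2* is the period gene that light induces in zebrafish. The assembly put its feature DN4896_c1_g1 in 1 component with the *PER1* feature, so reads shared by both could be divided between them. That feature had 14.9995, 11.9, 12.8 and 9.88 CPM in ALAN night brains, 5.43, 4.90, 9.66 and 9.41 CPM in control nights, 8.39, 6.28 and 7.43 CPM in ALAN day brains, and 6.02, 6.19 and 5.91 CPM in control day brains. Every lit night lay above every other brain, but the difference from natural day did not pass (log2 fold change 1.03, SE 0.256, edgeR adjusted p 0.0512), though it passed under DESeq2 and in 4 other settings. The second feature of that name, DN2810, had a log2 fold change of 0.16 with an interval of −0.21 to 0.52. *HMOX1*, haem oxygenase, had 12.8, 9.84, 10.8 and 5.52 CPM in ALAN night brains, against 1.65, 3.96 and 3.57 CPM in control day brains (log2 fold change 1.67, SE 0.492, edgeR adjusted p 0.108), again with all lit nights above the natural days and no edgeR call. DESeq2 called *HMOX1* higher. *phr*, which carries the name of a DNA photolyase that repairs damage with light, had 8.55, 9.52, 14.0 and 7.85 CPM in ALAN night brains, 4.62, 3.75, 8.30 and 9.75 CPM in control nights, 18.5, 14.0 and 15.8 CPM in ALAN day brains, and 18.6, 13.5 and 15.5 CPM in control day brains. Its difference from natural day was not called (log2 fold change −0.67, edgeR adjusted p 0.316). In summed CPM the list ran from 479 to 554 in ALAN night brains, from 363 to 523 in control night brains, from 242 to 258 in ALAN day brains and from 226 to 249 in control day brains, the lit nights overlapping only the dark nights.

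**Figure D4:**
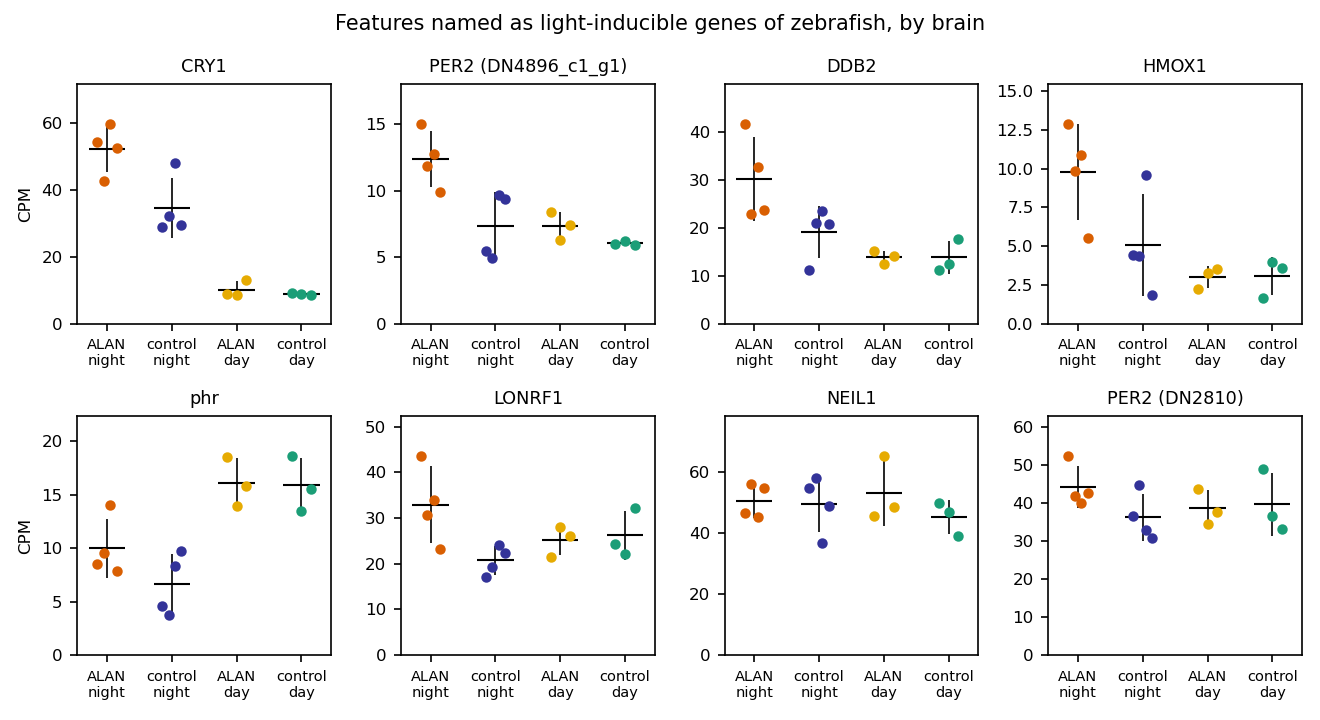
Levels of 8 features named as light-inducible genes of zebrafish in each brain, in CPM on a linear axis from 0, with 1 point a brain, a bar at the group mean and a vertical line of ± 1 SD. The ALAN night points of *CRY1*, *PER2* (DN4896_c1_g1), *DDB2* and *HMOX1* all stand above the control day points, those of *phr* do not, and *NEIL1* and *PER2* (DN2810) overlap in all 4 groups.

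The other signalling lists gave 0 to 2 edgeR calls each, so that 1 feature moves their share widely. Beside the 2.52% called over all features, the shares were 8.33% of 12 opsin and melatonin features, 6.9% of 29 heat shock, 9.09% of 22 stress axis, 5.88% of 17 peptide and 3.7% of 27 sterol features. The opsin call was *opn3*. Among 29 heat shock features, 2 were lower: *DNAJB1* (DN9118), a co-chaperone, with 13.1, 9.11, 10.7 and 10.8 CPM in ALAN night brains, against 22.4, 19.0 and 25.4 CPM in control day brains (log2 fold change −1.02, SE 0.144, edgeR adjusted p 0.00202); *HSP90AA1*, the inducible HSP90, had 235, 226, 201 and 213 CPM in ALAN night brains, against 357, 402 and 441 CPM in control day brains (log2 fold change −0.87, SE 0.123, edgeR adjusted p 0.00202). Lit nights and natural days did not overlap in either, but both features were picked by this call. No heat shock feature was called higher by edgeR with all 14 libraries, while DESeq2 called 3 higher, the replicate block 2, and the fit without control night replicate 3 also 2. Without ALAN night replicate 4, control day replicate 2, ALAN day replicate 2 or control night replicate 4 there was 1. The median log2 fold change of the list was −0.15, against −0.24 in control night over control day, where 3 were called lower (1.0% over all features). Its sums ran from 3933 to 4193 CPM in ALAN night brains, all above the control nights (3162.5 to 3896 CPM). Control day brains had 4184 to 4657 CPM and ALAN day brains 4078 to 4251 CPM. No heat shock feature was called in ALAN night over control night, where 0.0289% of all features were. Of 22 stress axis features 2 were higher, *PER1* and *DDIT4*, an inhibitor of TOR signalling induced by glucocorticoids, with 195, 255, 214 and 212 CPM in ALAN night brains, against 94.6, 112 and 106 CPM in control day brains (log2 fold change 1.07, SE 0.203, edgeR adjusted p 0.0136). Control nights overlapped the lit nights for *DDIT4* too, with 362.4 CPM in replicate 3 and 187.9 to 208.7 CPM in the others. *FKBP5*, a glucocorticoid target, had a log2 fold change of 2.82 (95% interval 1.21 to 4.43) that did not pass (edgeR adjusted p 0.0708).

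Among 17 feeding and sleep peptides *PDYN*, the dynorphin precursor, was lower with 52.7, 69.6, 52.1 and 32.6 CPM in ALAN night brains, 61.7, 74.3, 65.1 and 57.4 CPM in control nights, 72.5, 72.2 and 63.8 CPM in ALAN day brains, and 86.1, 99.1 and 108 CPM in control day brains. All 4 lit nights lay below the natural days (log2 fold change −0.92, SE 0.191, edgeR adjusted p 0.0219), a call lost without ALAN night replicate 3 or control day replicate 4 and with the 7 libraries alone. Hypocretin (*HCRT*), the wake-promoting peptide, had a log2 fold change of −0.87 that was not called (edgeR adjusted p 0.324). Of 27 features of sterol synthesis *FDFT1*, squalene synthase, was higher (log2 fold change 0.86, SE 0.164, edgeR adjusted p 0.0142). The median of the list was 0.52. That call was lost without control day replicate 1 or 4 and with the 7 libraries alone. None of 13 thyroid hormone features passed edgeR's test. Unadjusted, 3 had p under 0.05, and DESeq2 called 2.

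Among larger pathways the share called lay on both sides of the 2.52% over all features. No feature of the KEGG ribosome (123 tested), proteasome (54) or spliceosome (149) pathways was called by edgeR in ALAN night over control day. At an unadjusted p under 0.05 there were 7, 7 and 20 features, and DESeq2 called 1, 4 and 7. The interval lay within the factor of 1.5 for 82 ribosome, 36 proteasome and 89 spliceosome features. The citrate cycle gave 2 lower of 44 (4.55%) and oxidative phosphorylation 1 lower of 130 (0.769%). In MAPK signalling 8 were higher and 4 lower of 509 (2.36%), and in FoxO signalling 5 higher and 3 lower of 240 (3.33%). Thyroid hormone signalling by KEGG gave 6 higher and 2 lower of 226 (3.54%). The glutamatergic and GABAergic synapse pathways each gave 1 higher and 2 lower, of 261 (1.15%) and 185 (1.62%).

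Among markers of brain cells, *GAD1* (DN95_c0_g1), the GABA-making enzyme, was lower with 253, 271, 274 and 243 CPM in ALAN night brains, against 331, 316 and 328 CPM in control day brains (log2 fold change −0.32, SE 0.0777, edgeR adjusted p 0.0459). It was the 1 call of 20 neuron features (5.0%, against 2.52% over all features) and 1 that 17 of 20 settings lost. The neuron-list sums of all lit nights nevertheless lay below those of all natural days. The median log2 fold change of the neuron list was −0.09. Of 15 glial features 2 were higher (13.3%, against 1.27% higher over all features). *GLUL* (DN2249_c0_g2), glutamine synthetase of astroglia, had 1870.0, 2111, 2389 and 2051 CPM in ALAN night brains, 1708, 2032, 2401 and 1935 CPM in control nights, 1464, 1068 and 1435 CPM in ALAN day brains, and 613, 1533 and 737 CPM in control day brains. Its control day brains were spread more than 2-fold, and the call (log2 fold change 1.13, SE 0.257, edgeR adjusted p 0.0332) was lost in 8 of 20 settings, among them without ALAN night replicate 2, 3 or 4 and without control day replicate 1 or 4. *CSF1R* (DN6571_c0_g3), a receptor of microglia, was higher by 2.00 on the log2 scale (edgeR adjusted p 0.0418), a call that 11 of 20 settings lost. No photoreceptor (28 tested), pituitary (7) or blood (5) feature was called by edgeR. At an unadjusted p under 0.05 there were 3, 1 and 0, and DESeq2 called 1, 1 and 0. The photoreceptor list summed to between 89.8 and 130.6 CPM in ALAN night brains and between 116 and 399.9 CPM in control day brains. The pituitary list stood at 1412 CPM in ALAN night replicate 2, against 62.4 to 66.9 CPM in the other lit nights and 64.3 to 104 CPM in control day brains.

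A block of lower calls came from plasma protein genes made chiefly by liver. Of 20 liver-list features tested, 13 were called lower in ALAN night than in control day brains (65.0%, against 1.25% lower over all features). The median log2 fold change of the list was −4.50. They were features of the fibrinogen chains *FGA*, *FGB* and *FGG*, of complement *C3*, and of *FETUB*, *SERPINC1*, *AMBP*, *APOB* and prothrombin (*F2*). *FGB* had 1.72, 3.43, 5.35 and 0.659 CPM in ALAN night brains, 19.8, 1.25, 17.1 and 7.10 CPM in control nights, 8.93, 1.48 and 6.44 CPM in ALAN day brains, and 52.1, 159 and 44.4 CPM in control day brains (ALAN night over control day: log2 fold change −4.92, SE 0.888, edgeR adjusted p 0.0103). The natural days were the high group, and the ALAN day brains, also taken at ZT11, lay with the nights. Summed over the 13, levels were 17.3, 20.3, 36.1 and 5.37 CPM in ALAN night brains, 142, 12.3, 113 and 66.5 CPM in control nights, 67.5, 7.07 and 39.7 CPM in ALAN day brains, and 350, 930 and 354 CPM in control day brains. The 13 were picked by their call in this contrast, so a gap between the 2 groups in this sum is no further evidence. Over the whole liver list the 2 groups overlapped, with 309, 639, 669 and 367 CPM in ALAN night brains and 656, 1391 and 641 CPM in control day brains. The 13 calls became 7 without ALAN night replicate 1 or 2. *AHSG*, *CP* and *TF*, which are on the same list and were not called, gave 0.81, 0.83 and −0.21 on the log2 scale.

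The KEGG pathway of complement and coagulation gave 3 higher and 25 lower of 112 tested (25.0% called, against 2.52% over all features), and 13 lower without ALAN night replicate 4. A *C3* feature (DN107751) had no count in the 4 ALAN night brains and 101 counts in the 3 control day brains. That is at least 55.4-fold lower with 3 counts over the group as the floor, but edgeR did not call this feature. Of the liver list, *ALB*, *APOA1*, *APOA2*, *HP*, *SERPINA1* and *TTR* had no feature in the table by name. Whether these features came from liver or blood carried with a brain was not tested.

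Skeletal muscle features moved with 2 of the control day brains. Of 19 tested, 7 were called lower in ALAN night brains (36.8%, against 1.25% lower over all features), among them *TNNT3*, *MYH1*, *TTN* and *MYLPF*. Summed, the 7 were at 47.7, 21.0, 12.3 and 50.4 CPM in ALAN night brains, 91.9, 74.3, 228 and 91.8 CPM in control nights, 81.8, 41.8 and 43.9 CPM in ALAN day brains, and 725, 26.9 and 633 CPM in control day brains. Control day replicate 2 lay among the ALAN nights in this sum, whose 7 features were also picked by their call. Over the whole muscle list the sums were 455, 387, 409 and 445 CPM in ALAN night brains, and 1372, 352 and 1103 CPM in control day brains. None of the 7 was called without ALAN night replicate 2 or 3, without control day replicate 1 or 4, or with the 7 libraries alone. *ACTA1* and *CKM* had no feature in the table by name. The part of liver and muscle features in the other calls was not tested. In control day replicates 1, 2 and 4, *FOS* was at 42.5, 44.4 and 64.0 CPM, *PER3* at 7.82, 8.80 and 8.54 CPM, *EGR2* at 31.0, 41.1 and 37.2 CPM and *CLOCK* (DN2765_c0_g2) at 9.68, 6.03 and 8.83 CPM. Of these, *CLOCK* had the order of both muscle sums. *PER3* and *EGR2* had that of the sum of the 13 called liver features, in which replicates 1 and 4 were nearly tied (350 and 354 CPM). None of these features had the order of the whole liver list, at 656, 1391 and 641 CPM. A link between these orders was not tested.

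**Figure D5:**
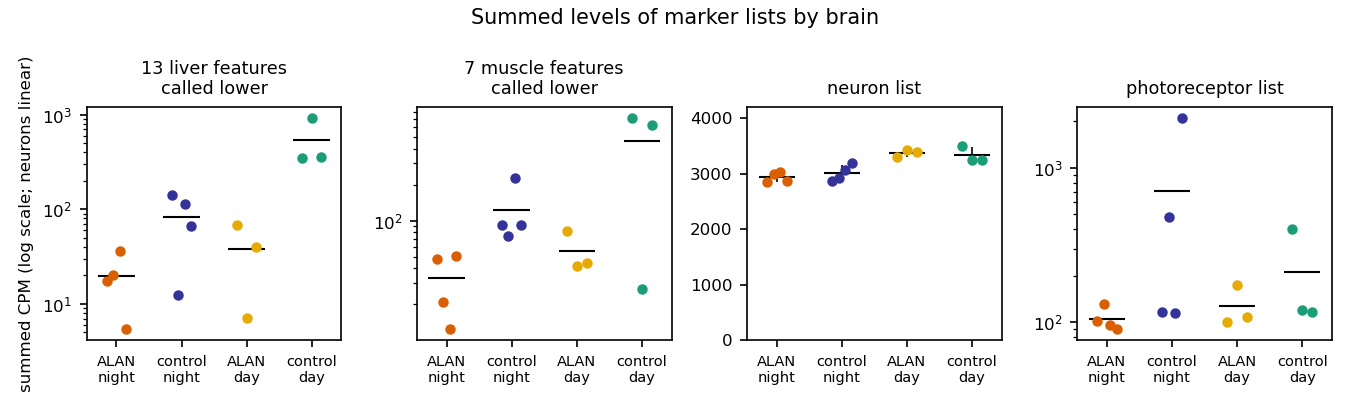
Summed CPM in each brain of the 13 liver and the 7 muscle features called lower, the neuron list and the photoreceptor list, with 1 point a brain, a bar at the group mean and, for neurons, a line of ± 1 SD; neurons are on a linear axis from 0, the others on log axes. The liver sums of all 3 control day brains lie above 349 CPM and those of ALAN night brains below 37 CPM, while the muscle sum is high in 2 of 3 control day brains. The liver and muscle features were picked by these calls, so the gaps in their sums are partly set by that choice.

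Since the contrasts above share the control day brains, calls of night against day were also read from 2 contrasts with no brain in common. Each sets ZT23 brains, dark or under dim lamps, against ZT11 brains taken by day. Light and time therefore cannot be told apart here. Control night over ALAN day called 239 features (1.15% of those tested), 97 higher (0.467%) and 142 lower (0.683%). Of these, 156 were called in the same direction in ALAN night over control day, 72 higher and 84 lower, which is 65.3% of the 239 and 29.8% of the 524. None was called in the opposite direction, and 232 of the 239 had the same sign. The 2 contrasts share no brain, only the estimate of the spread. The 156 became 99 without ALAN day replicate 2 and 309 under DESeq2. Within the lamp-treated fish, ALAN night over ALAN day called 214 features (1.03%), 97 higher (0.467%) and 117 lower (0.563%), and 131 without ALAN day replicate 1 or 2.

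Of the tested features, 46 had no count in any brain of ALAN night or in any of control day. Besides the *C3* feature, 1 of them is described here. This unnamed feature without description (DN44657) had none in the 4 ALAN night brains and 978 counts in the 3 control day brains, at 24.4, 19.6 and 16.3 CPM, which is at least 536-fold lower with 3 counts over the group as the floor. It was also near 0 in the other groups, at 0.116, 0.100, 0.607 and 0.0855 CPM in control nights and at 0.0987, 0 and 0 CPM in ALAN day brains, so nearly all of its reads were in natural day brains. It was the 1 feature called in ALAN day over control day (0.00481% of those tested), being lower there too. A feature described as an S100 calcium-binding protein (DN2587) was also nearly without reads in the lit night, with 0, 0, 0.237 and 0.101 CPM in ALAN night brains, against 49.3, 29.8 and 10.7 CPM in control day brains.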

How the data were processed

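Messenger RNA of single brains was read as pairs of 150 bases from non-stranded libraries with 9-base molecular identifiers, per the labels' protocols; the sources used here do not say whether identifiers were collapsed. The deposited table holds expected counts per assembled gene (95.98% of values not whole); the submitters' processing notes name Trimmomatic 0.39, Bowtie2 and RSEM. Feature names are in Trinity style. Per the file headers, eggNOG-mapper 2.1.7 gave the deposited gene names, each with a bit score (median score 536).

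Expected counts were rounded, filtered (filterByExpr by group, minimum count 10, minimum total 15) and TMM-scaled. The 14 libraries, none of another series (0 such columns), were fitted in edgeR 4.0.16 (R 4.3.3) with a mean per group, and p-values were Benjamini-Hochberg adjusted over 20782 features at 0.05. SE is the absolute log2 fold change over the square root of F; intervals are 95%. Scripts were tested on simulated data. The members and lists were chosen with earlier results of these data known; 8 symbols were dropped from the lists after names were seen. Named were the 12 features per direction with the smallest p, called list features, and the first 8 features within the margin; unnamed features and other list members were added after values were seen. The 3 stranded assembly libraries and sequences were not analysed here. Alternatives were DESeq2 1.42.0, RLE scaling, no filter, the 2 groups alone, sums by gene name, a replicate block, a test beyond a factor of 1.5, and leaving out each library.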

Additional observations from a re-analysis of the deposited data

Results flagged for a closer look

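In 18 of 212 groups of 4 brains examined, 1 brain stood apart from the other 3 by Dixon's gap-to-range criterion; chance alone flags about 1 group in 20. Among lit nights, replicate 1 stood apart in 4 features. It had 107.7 CPM of *jun* (others 83.2 to 87.0 CPM), 153.4 CPM of *GPI* (others 157.7 to 158.2), 4.193 CPM of *NPAS2* DN4378 (others 1.37 to 1.75) and 0 CPM of *C3* DN22177_c0_g1 (others 0.0458 to 0.0507). That *C3* feature was almost without reads in every lit night, so its gap lies at the floor. Replicate 2 had 122.2 CPM of *JUND* DN13545_c1_g1 (others 86.7 to 90.3). Replicate 3 had 3.076 CPM of *SERPINC1* (others 0.253 to 0.732), 11.69 CPM of *CACNG5* (others 9.30 to 9.63) and 0.3313 CPM of *MYL1* DN9830 (others 2.13 to 2.47). Replicate 4 had 152.1 CPM of *CDK5R2* (others 187.3 to 194.0). *C3* and *SERPINC1* are on the liver list and *MYL1* on the muscle list.

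Among dark nights, replicate 3 had 48.06 CPM of *CRY1* (others 28.9 to 32.1), 362.4 CPM of *DDIT4* (others 187.9 to 208.7) and 87.48 CPM of *TNNT3* (others 32.4 to 35.8). Replicate 1 had 1.964 CPM of *ATF3* (others 0.793 to 0.984), 14.73 CPM of *IER2* (others 25.1 to 27.1) and 98.15 CPM of *KCTD17* (others 72.5 to 74.7). Replicate 2 had 1.151 CPM of *FOSL1* DN60578 (others 0.0578 to 0.214) and 13.01 CPM of *DNAJB1* DN9118 (others 11.6 to 11.7), and replicate 4 had 20.36 CPM of *KLF2* DN10687 (others 22.4 to 22.6). The *CRY1* value is the 1 dark night inside the range of the lit nights.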

How the results depend on the processing

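RLE scaling and no filter kept every count of calls within 1.5 times of its value. DESeq2 called 1197 features in ALAN night over control day (594 higher, 603 lower), 1096 in control night over control day, 41 in ALAN night over control night and 658 in ALAN night over ALAN day; 319 lower and 370 higher features were called in both contrasts with control day, and 309 in both contrasts with no brain in common; it gave no interval to set against the margin. With the 7 libraries alone 307 were called (142 higher, 165 lower), and a test beyond a factor of 1.5 called 148. Summing counts by gene name gave 3 calls in ALAN night over control night and 29 features within the margin. A margin of a factor of 2 held 86 features lower and 34 higher in the dark night.

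Whether the replicate numbers mark anything shared by the brains was not tested. Deviations of same-numbered brains correlated at 0.079, 0.070 and 0.001 across features, and 2 of the 3 control day brains correlated best with the ALAN night brain of their own number. With a replicate block 305 features were called (169 higher, 136 lower), 240 in control night over control day, 62 lower and 105 higher in both, and 4 and 1 lay within the margin.

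Leaving out 1 brain at a time gave 233 to 606 calls in ALAN night over control day, 111 to 356 higher and 122 to 266 lower. It gave 216 to 552 in control night over control day, 1 to 8 in ALAN night over control night and 131 to 214 in ALAN night over ALAN day. Called in both contrasts were 68 to 135 lower and 76 to 265 higher features, 3 to 16 and 0 to 3 lay within the margin, and 99 to 155 were shared by the contrasts with no brain in common. The cause of these shifts was not tested, beyond the fewer samples in each fit. No named feature reversed its direction among called ones. Groups of 3 and 4 brains limit what can be held within the margin: 70 features lower in the dark night were neither called nor inside it.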
